A study of Petromyzon marinus with 12 samples.

Results

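The transcripts of 4 histone lysine methyltransferases were followed in early sea lamprey (Petromyzon marinus) embryos: SUV39H2 and SETDB1, which methylate lysine 9 of histone H3 (H3K9), and KMT5A and KMT5B, which methylate lysine 20 of histone H4 (H4K20). The members were all gene models that carry one of these 4 symbols in the deposited annotation, and they came to 5 of the 22407 gene models in the count table because KMT5B is annotated on 2 chromosomes. RNA sequencing libraries were made from whole embryos of 6 groups with 2 libraries each: KMT5A knockout, KMT1 knockout and wildtype at day 3, and the same genotypes at day 2. Per the labels' protocols, embryos came from stripped gametes of mature adults, were kept in dilute Holtfreter's solution and were injected with Cas9 protein and guide RNAs, and each library was made from a separate pool of snap-frozen embryos. The rearing temperature, the number of embryos per pool and the time of screening are given as the same for all 6 groups. The knockout groups are therefore pools of injected embryos and not bred mutant lines, and the labels do not say which cells of an embryo carry an edit or whether the wildtype embryos were injected. Cas9 injection and the loss of the targeted gene cannot be told apart in any comparison of a knockout with wildtype. In such bulk samples, fewer cells of a type and less RNA per cell cannot be told apart either.

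SUV39H2 and its relatives place the trimethyl mark on H3K9 that HP1 proteins bind in constitutive heterochromatin, and SETDB1 places the same mark at transposable elements and silenced genes, usually together with the TRIM28 and ATF7IP proteins. KMT5A is the enzyme that adds the first methyl group to H4K20, its protein is destroyed during S phase through PCNA and the ubiquitin ligase that contains DTL, and the KMT5B enzymes extend the monomethyl mark to the di- and trimethyl forms. Sea lamprey embryos discard a germline-specific part of their genome from their somatic cells during the first days of development, and the title of the study names that process as the setting in which the methyltransferases were tested.

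KMT1 is a family name that covers SUV39H1, SUV39H2, EHMT1, EHMT2, SETDB1 and SETDB2 in the systematic nomenclature, so the label alone does not say which gene the guides were meant to cut. SUV39H2 (PM09768) lies on chromosome 14 at 8620044 to 8633357 on the plus strand, with 1 transcript model, 6 exons and a longest reading frame of 509 codons. SETDB1 (PM02232) lies on chromosome 1 at 26174856 to 26209909 on the minus strand, with 12 transcript models, 29 exons and 1559 codons. KMT5A (PM11985) lies on chromosome 21 at 11963808 to 11985404 on the minus strand, with 3 transcript models, 7 exons and 453 codons. The first KMT5B copy (PM12770) lies on chromosome 24 at 4726497 to 4761155 on the plus strand, with 10 exons and 1003 codons. The second copy (PM07331) lies on chromosome 7 at 11461393 to 11470600 on the minus strand, with 10 exons and 782 codons. The annotation's own match to a human protein has 59.6 to 64.2% identity over the transcript models of the chromosome 24 copy and 44.4 to 44.7% over those of the chromosome 7 copy. The coordinates are those of the deposited annotation, whose assembly is not given in the sources used here. The span of KMT5A, introns included, overlaps that of an unnamed gene model on the opposite strand (PM11984) by 12687 bases. How much of this overlap lies in exons was not measured. No source gives the strand setting of the counting, so any reads from shared exons could not be told apart. The unnamed model itself was listed at 502 and 0 estimated counts in day 3 KMT5A knockout libraries, against 447 and 263 in day 3 wildtype libraries. It did not pass the test in that comparison, with a log2 value of 0.14. Its counts varied widely between replicates on day 2 as well, at 258 and 2304 in KMT5A knockout and 839 and 0 in KMT1 knockout libraries. The day 2 wildtype libraries had 538 and 695, and the day 3 KMT1 knockout libraries 495 and 318.

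Library totals were between 61886305 and 89061394 estimated counts. Replicate 2 of the day 3 KMT1 knockout and replicate 1 of the day 3 KMT5A knockout stood apart: the 2 most abundant gene models, annotated as ribosomal RNA, took 6.99% and 15.3% of their counts, while in the remaining 10 libraries they took 0.411 to 0.599%. The median difference between replicates was 0.159 log2 units in day 3 KMT5A knockout and 0.142 in day 3 KMT1 knockout libraries, and 0.0718 to 0.0879 in the remaining groups. Values of the members that rest on these libraries are also given without both of them, which ended 1 of 22 calls. Of the early embryonic regulators listed (such as TBXT, GSC, FOXA2 and SOX2), 6 of 10 symbols were found in 11 gene models, and their summed level was 1103 to 1118 CPM in day 3 and 696 to 707 CPM in day 2 wildtype embryos. The 2 FOXA2 models carried most of that difference, at means of 457.2 and 146.7 CPM in day 3 against 8.82 and 1.96 CPM in day 2 wildtype embryos, whereas a SOX2 model (PM21536) averaged 62.5 CPM in day 3 against 441.0 CPM in day 2. The summed level was 845 to 1006 CPM in day 3 KMT5A knockout and 1003 to 1055 CPM in day 3 KMT1 knockout embryos. TMM factors were 0.712 and 0.915 in day 3 KMT5A knockout and 0.915 and 0.821 in day 3 KMT1 knockout libraries. They were 0.908 and 0.911 in day 3 wildtype and 1.12 and 1.13 in day 2 wildtype libraries. A smaller factor makes a level higher on the TMM scale, so these marker differences between groups would differ on that scale. Of the markers of differentiated muscle and blood listed, 3 of 8 symbols were found (CKM, TNNT3 and MYH1, all of muscle), and their 5 gene models were at 0 in all 12 libraries. The muscle symbols ACTA1 and MYH4 and the blood symbols HBA1, HBB and HBE1 were not found, so blood could not be assessed.

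Between day 2 and day 3 of wildtype development, 3 of the 5 methyltransferase gene models fell and 2 rose. SUV39H2 had 51.6 and 56.1 CPM (the deposited estimated counts scaled to a common library size by TMM) in day 3 wildtype embryos, against 119.7 and 119.2 CPM in day 2 wildtype embryos. Its log2 fold change was -1.15 ± 0.09 (SE, adjusted p = 7.77e-06 by edgeR's quasi-likelihood test with Benjamini-Hochberg adjustment over 15615 genes, the test used throughout). KMT5A had 197.3 and 207.8 CPM in day 3 and 373.0 and 388.6 CPM in day 2 wildtype embryos, a log2 fold change of -0.91 ± 0.07 (adjusted p = 6.04e-06). The chromosome 24 copy of KMT5B had 72.0 and 67.0 CPM in day 3 and 164.5 and 168.5 CPM in day 2 wildtype embryos, a log2 fold change of -1.26 ± 0.06 (adjusted p = 7.41e-07). In each of these 3 genes the day 3 libraries lay far below the day 2 libraries, with gaps many times the difference between replicates.

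The other KMT5B copy and SETDB1 went the other way. The chromosome 7 copy of KMT5B had 56.8 and 56.5 CPM in day 3 and 40.6 and 42.0 CPM in day 2 wildtype embryos, a log2 fold change of 0.46 ± 0.10 (adjusted p = 0.00343). SETDB1 had 159.3 and 132.2 CPM in day 3 and 103.8 and 113.4 CPM in day 2 wildtype embryos, a log2 fold change of 0.42 ± 0.12 (adjusted p = 0.0134). The day 3 libraries were above the day 2 libraries for both genes, but the 2 day 3 SETDB1 libraries differed from each other by more than the lower one differed from the higher day 2 library. Of all tested genes 66.1% passed in this comparison, so that 5 of 5 members passing stands against a high background, and the median log2 change of all genes was -0.32. Relative to that median the changes were -0.83 for SUV39H2, -0.59 for KMT5A, -0.94 for the chromosome 24 copy and 0.78 for the chromosome 7 copy of KMT5B, and 0.75 for SETDB1. With library size as the only scaling, the median of all genes moved by a further -0.31, the falls of SUV39H2, KMT5A and the chromosome 24 copy stayed past the threshold, and the rises of SETDB1 (log2 change 0.11, adjusted p = 0.618) and of the chromosome 7 copy (0.15, adjusted p = 0.221) did not. The SETDB1 call was also lost without replicate 1 of day 3 wildtype (0.28, adjusted p = 0.105) and without replicate 1 of day 2 wildtype (0.36, adjusted p = 0.0801).

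**Figure D1:**
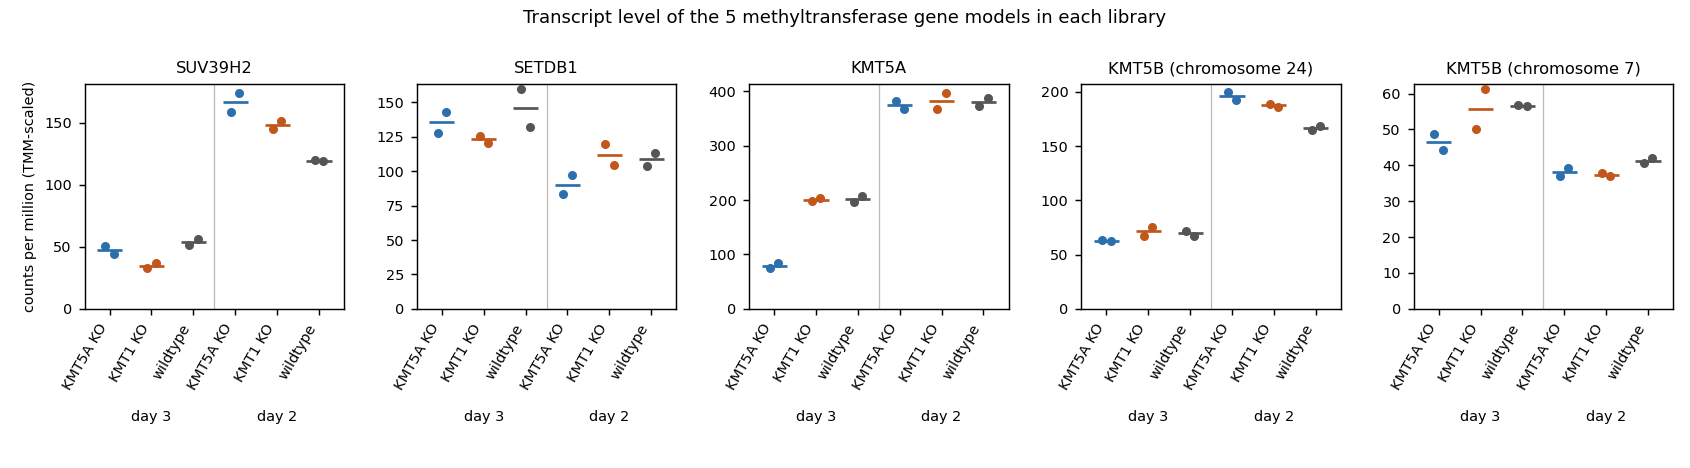
Level of each methyltransferase gene model in CPM on TMM-scaled library sizes (vertical axes, each from 0) in the 6 groups (horizontal axis). Points are single libraries and bars are the mean of 2, and the day 3 KMT5A knockout libraries at 74.5 and 84.6 CPM sit below every other library in the KMT5A panel.

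Set side by side per kilobase of annotated exon, KMT5A had the highest level of the 5 models in day 2 wildtype embryos, at 28.1 CPM per kb. SUV39H2 followed at 17.9 CPM per kb, the chromosome 24 copy of KMT5B at 12.6, SETDB1 at 10.8 and the chromosome 7 copy of KMT5B at 8.77 CPM per kb, and no neighbours in this order had overlapping libraries. On day 3 the levels of KMT5A at 14.9 and SETDB1 at 14.5 CPM per kb in wildtype embryos were neighbours whose libraries overlapped, and the chromosome 7 copy of KMT5B followed at 12, SUV39H2 at 8.06 and the chromosome 24 copy at 5.27 CPM per kb. The order by level thus differed between the days, with SUV39H2 above both KMT5B copies and SETDB1 on day 2 and below SETDB1 and the chromosome 7 copy on day 3 in wildtype embryos. These are levels of summed transcript models, and the share of each model was not analysed here.

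KMT5A, the gene named in the label of the KMT5A knockout, was lower in that knockout on day 3 and not on day 2. On day 3 it had 74.5 and 84.6 CPM in KMT5A knockout embryos, against 197.3 and 207.8 CPM in wildtype embryos. Both knockout libraries were below both wildtype libraries by over 100 CPM, and the mean was 79.6 ± 7.1 CPM in KMT5A knockout and 202.6 ± 7.5 CPM in wildtype embryos (SD, n = 2 each). The log2 fold change was -1.35 ± 0.07 (SE, adjusted p = 6.25e-05 by edgeR's quasi-likelihood test), which is 0.393 times the wildtype level. KMT5A was the 1 member of 5 that passed in this comparison, where 5.3% of all tested genes passed. On day 2 KMT5A had 382.3 and 367.4 CPM in KMT5A knockout embryos, against 373.0 and 388.6 CPM in wildtype embryos, and these libraries overlapped (log2 fold change -0.02 ± 0.07, adjusted p = 1). The difference between the days was itself past the threshold, with a log2 value of -1.33 ± 0.09 (adjusted p = 0.000516). Leaving out any 1 of the 12 libraries kept the day 3 call, with log2 values from -1.45 to -1.26, and without both libraries rich in ribosomal RNA, with 1 KMT5A knockout library left on day 3, the value was -1.26 (adjusted p = 0.000224) and the difference between the days -1.28 (adjusted p = 0.000566). A fit on the 4 compared libraries alone, which has 2 residual degrees of freedom, gave -1.36 with an adjusted p of 0.0553. That fit called 14 of 12985 genes, while the matching fit on day 2 called 1991 of 14804.

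KMT5A in KMT1 knockout embryos overlapped wildtype on both days. It had 198.2 and 203.9 CPM in day 3 KMT1 knockout embryos, within the range of the day 3 wildtype libraries, and 367.2 and 396.9 CPM in day 2 KMT1 knockout embryos. The log2 fold change over wildtype was -0.01 ± 0.07 on day 3 and 0.00 ± 0.07 on day 2. Set directly against the KMT1 knockout on day 3, the KMT5A knockout had a log2 fold change of -1.34 ± 0.07 for KMT5A (adjusted p = 0.00013), which was the 1 member of 5 to pass there, where 1.47% of all tested genes passed. Leaving both libraries rich in ribosomal RNA out gave -1.28 (adjusted p = 0.000393). In the fit on those 4 libraries alone the adjusted p was 0.291, and only 1 gene of the whole table passed. On day 2 none of the 5 members passed between the 2 knockouts with edgeR, where 0.147% of all tested genes passed. At an unadjusted p under 0.05 there was 1, SETDB1, lower in the KMT5A knockout. DESeq2 called 0 of the 5 members and 100 of 15615 genes.

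Of the KMT1 family models found by symbol, SUV39H2 was the one that passed lower in KMT1 knockout embryos on day 3. It had 32.7 and 36.8 CPM in day 3 KMT1 knockout embryos, against 51.6 and 56.1 CPM in day 3 wildtype embryos. The groups did not overlap, and the mean was 34.7 ± 2.9 CPM in KMT1 knockout and 53.8 ± 3.2 CPM in wildtype embryos (SD, n = 2 each). The log2 fold change was -0.63 ± 0.09 (SE, adjusted p = 0.00624), which is 0.645 times the wildtype level. It was the 1 member of 5 that passed in this comparison, where 6.26% of all tested genes passed. The call was kept without any 1 of the 12 libraries, with log2 values from -0.68 to -0.55, and without both libraries rich in ribosomal RNA (-0.68, adjusted p = 0.00264), while the fit on the 4 compared libraries alone gave -0.63 with an adjusted p of 0.127.

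The other KMT1 family models found by these symbols did not pass on day 3. SETDB1 had 125.7 and 120.3 CPM in day 3 KMT1 knockout embryos, against 159.3 and 132.2 CPM in wildtype embryos. Both knockout libraries were below both wildtype libraries, but the gap was smaller than the difference between the wildtype replicates (log2 fold change -0.24 ± 0.12, adjusted p = 0.294). EHMT2, a euchromatic H3K9 methyltransferase of the same family, had a log2 fold change of -0.16 in the KMT1 knockout (adjusted p = 0.256) and of -0.30 in the KMT5A knockout (adjusted p = 0.0565) on day 3. Leaving out both libraries rich in ribosomal RNA, SETDB1 had -0.17 in the KMT1 knockout (adjusted p = 0.638), and EHMT2 had -0.07 in the KMT1 knockout (adjusted p = 0.381) and -0.19 in the KMT5A knockout (adjusted p = 0.053).

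On day 2 SUV39H2 was higher, not lower, in both knockouts. It had 158.8 and 173.8 CPM in KMT5A knockout embryos and 144.9 and 151.0 CPM in KMT1 knockout embryos, against 119.7 and 119.2 CPM in wildtype embryos. All 4 knockout libraries were above both wildtype libraries. The 2 comparisons use the same 2 wildtype libraries, so they are not independent. The rise passed in the KMT5A knockout (log2 fold change 0.48 ± 0.09, adjusted p = 0.0134), where SUV39H2 was the 1 member of 5 to pass and 9.07% of all tested genes passed. In the KMT1 knockout the value of 0.31 ± 0.09 missed the threshold (adjusted p = 0.0677), none of the 5 members passed with edgeR, and 9.97% of all tested genes did. There were 2 members higher at an unadjusted p under 0.05, a cut whose share over all genes is not given here. DESeq2 called 2 members, SUV39H2 and the chromosome 24 copy of KMT5B, and 2543 of the 12587 genes it tested. The KMT5A knockout call was lost without replicate 1 of day 2 wildtype (adjusted p = 0.0827), replicate 2 of day 2 wildtype (0.0798) or replicate 2 of day 2 KMT5A knockout (0.0921). The KMT1 knockout value passed with DESeq2 (0.34, adjusted p = 0.00559), in the fit on the 4 compared libraries alone (0.35, adjusted p = 0.00808) and without both libraries rich in ribosomal RNA (0.35, adjusted p = 0.0154).

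The difference of SUV39H2 from wildtype therefore had opposite signs on the 2 days in the KMT1 knockout. Tested as a difference between days, it came to -0.94 ± 0.12 log2 units (SE, adjusted p = 0.00436), and SUV39H2 was the 1 member of 5 to pass where 10.2% of all tested genes passed. Without both libraries rich in ribosomal RNA it was -1.02 (adjusted p = 0.00156). In the KMT5A knockout SUV39H2 had 50.8 and 44.5 CPM on day 3, against 51.6 and 56.1 CPM in day 3 wildtype embryos, so that both knockout libraries were below both wildtype libraries by a gap smaller than the difference between replicates (log2 fold change -0.18 ± 0.09, adjusted p = 0.318, and -0.28, adjusted p = 0.0842, without both libraries rich in ribosomal RNA). The difference between days for the KMT5A knockout was -0.65 ± 0.12 (adjusted p = 0.0164). Without both libraries rich in ribosomal RNA it was -0.80 (adjusted p = 0.0051). It lost the threshold without replicate 2 of day 2 KMT5A knockout (adjusted p = 0.0642) and without replicate 1 (0.0605) or replicate 2 (0.0604) of day 2 wildtype. Between the knockouts on day 3, SUV39H2 was 0.46 ± 0.09 log2 units higher in the KMT5A knockout than in the KMT1 knockout, which missed the threshold (adjusted p = 0.0582), and passed with DESeq2 (0.47, adjusted p = 0.000299) and without replicate 2 of either day 3 knockout. With both libraries rich in ribosomal RNA left out it was 0.40 (adjusted p = 0.0549).

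**Figure D2:**
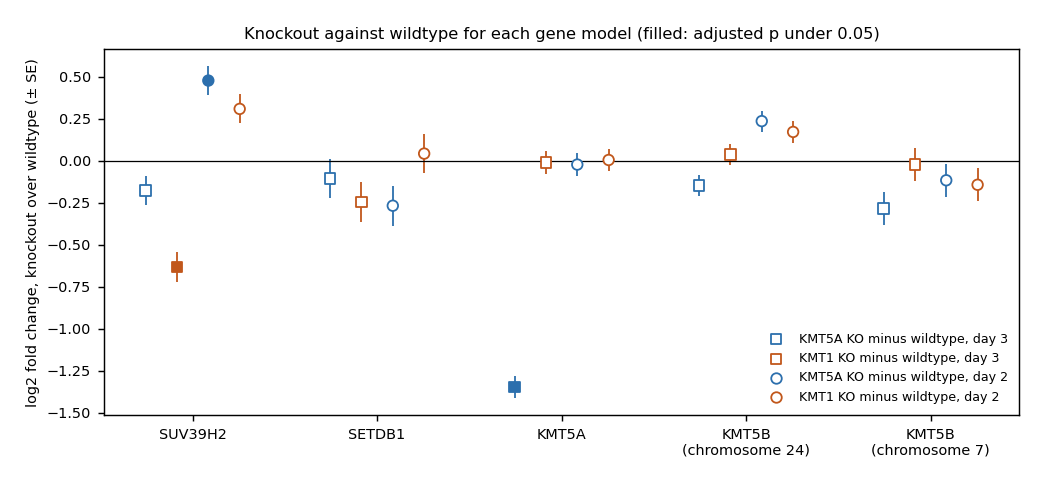
Log2 fold change of each gene model in knockout over wildtype embryos (vertical axis, bars are SE from the fit over 12 libraries) for the 4 knockout comparisons. Filled symbols passed an adjusted p of 0.05: KMT5A in the KMT5A knockout and SUV39H2 in the KMT1 knockout on day 3, both lower, and SUV39H2 in the KMT5A knockout on day 2, higher.

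The remaining members moved little between knockout and wildtype. SETDB1 had 127.7 and 143.2 CPM in day 3 KMT5A knockout embryos, which overlapped the day 3 wildtype libraries (log2 fold change -0.11 ± 0.12, adjusted p = 0.773, and -0.03 without both libraries rich in ribosomal RNA). On day 2 it had 83.6 and 96.8 CPM in KMT5A knockout and 119.6 and 104.2 CPM in KMT1 knockout embryos, against 103.8 and 113.4 CPM in wildtype embryos, and neither difference passed. The chromosome 24 copy of KMT5B had 200.1 and 192.1 CPM in KMT5A knockout and 189.0 and 186.1 CPM in KMT1 knockout embryos on day 2, against 164.5 and 168.5 CPM in wildtype embryos. These 2 wildtype libraries serve both comparisons, which are therefore not independent. All 4 knockout libraries were above both wildtype libraries, with log2 fold changes of 0.24 ± 0.06 in the KMT5A knockout (adjusted p = 0.0619) and 0.17 ± 0.06 in the KMT1 knockout (adjusted p = 0.165). Both passed with DESeq2 (adjusted p = 0.00233 for the KMT5A and 0.0263 for the KMT1 knockout), and with the compared groups alone (0.0148 and 0.0156), and the KMT5A knockout value passed without both libraries rich in ribosomal RNA (0.28, adjusted p = 0.0234). On day 3 this copy had 63.1 and 62.3 CPM in KMT5A knockout and 66.7 and 75.9 CPM in KMT1 knockout embryos, against 72.0 and 67.0 CPM in wildtype embryos, and neither difference passed. Their log2 values without both libraries rich in ribosomal RNA were -0.16 (adjusted p = 0.224) for the KMT5A and -0.02 (adjusted p = 1) for the KMT1 knockout.

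The chromosome 7 copy of KMT5B had 48.8 and 44.2 CPM in KMT5A knockout and 50.2 and 61.4 CPM in KMT1 knockout embryos on day 3, against 56.8 and 56.5 CPM in wildtype embryos. The KMT5A knockout libraries were below both wildtype libraries (log2 fold change -0.28 ± 0.10, adjusted p = 0.155), and the KMT1 knockout libraries lay on either side of them. Without both libraries rich in ribosomal RNA the KMT5A knockout value was -0.36, from 1 KMT5A knockout library. On day 2 this copy had 37.1 and 39.2 CPM in KMT5A knockout and 37.8 and 37.0 CPM in KMT1 knockout embryos, against 40.6 and 42.0 CPM in wildtype embryos, with log2 fold changes of -0.12 ± 0.10 and -0.14 ± 0.10 that did not pass.

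Development within the knockouts had the directions seen in wildtype embryos for all 5 members. In the KMT5A knockout, day 3 minus day 2, 3 members fell and 2 rose, and 66.1% of all tested genes passed. KMT5A fell by 2.24 ± 0.07 log2 units (adjusted p = 4.75e-08), SUV39H2 by 1.80 ± 0.09 (adjusted p = 5.81e-07) and the chromosome 24 copy of KMT5B by 1.64 ± 0.07 (adjusted p = 1.68e-07). SETDB1 rose by 0.59 ± 0.12 (adjusted p = 0.00259) and the chromosome 7 copy of KMT5B by 0.29 ± 0.10 (adjusted p = 0.0309). The SETDB1 call was lost with library size as the only scaling (0.06, adjusted p = 0.803). The rise of the chromosome 7 copy turned into a fall of -0.26 (adjusted p = 0.0441) with library size as the only scaling, where the median of all genes moved by -0.53 from its main value of -0.34, and it was lost without replicate 1 of day 3 KMT5A knockout (0.19, adjusted p = 0.155) and without replicate 1 (0.25, adjusted p = 0.133) or 2 (0.33, adjusted p = 0.0614) of day 2 KMT5A knockout. It was also lost with the compared groups alone (0.28, adjusted p = 0.0559) and without both libraries rich in ribosomal RNA (0.19, adjusted p = 0.0503). Without both, the other 4 values were -2.17 for KMT5A, -1.93 for SUV39H2, -1.68 for the chromosome 24 copy and 0.64 for SETDB1, all past the threshold.

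In the KMT1 knockout, day 3 minus day 2, 3 members fell and 1 rose, and 64.4% of all tested genes passed. SUV39H2 fell by 2.09 ± 0.09 log2 units (adjusted p = 2.83e-07), KMT5A by 0.93 ± 0.07 (adjusted p = 5.43e-06) and the chromosome 24 copy of KMT5B by 1.40 ± 0.06 (adjusted p = 4.17e-07). The chromosome 7 copy of KMT5B rose by 0.58 ± 0.10 (adjusted p = 0.000927), a call that library size as the only scaling ended (0.12, adjusted p = 0.291). SETDB1 had 125.7 and 120.3 CPM in day 3 and 119.6 and 104.2 CPM in day 2 KMT1 knockout embryos, and its difference of 0.14 ± 0.12 did not pass (adjusted p = 0.342) and was -0.31 (adjusted p = 0.185) with library size as the only scaling. In the fit without both libraries rich in ribosomal RNA, the values were -2.15 for SUV39H2, -0.92 for KMT5A, -1.46 for the chromosome 24 and 0.45 for the chromosome 7 copy, all past the threshold, and 0.20 for SETDB1, which did not pass (adjusted p = 0.329).

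The change over the day differed from that of wildtype embryos in 3 of 5 members for the KMT5A knockout, where 9.65% of all tested genes passed, and each was a larger fall. Besides KMT5A and SUV39H2, these included the chromosome 24 copy of KMT5B, at -0.38 ± 0.09 log2 units (adjusted p = 0.0362). That last call was weak: it was lost with library size as the only scaling (-0.61, adjusted p = 0.0931), with DESeq2 size factors (-0.38, adjusted p = 0.0553), and without either library of day 2 wildtype, day 2 KMT5A knockout or day 2 KMT1 knockout or without replicate 1 of day 3 wildtype, with adjusted p from 0.0134 to 0.121 over the 12 fits that leave out 1 library. It was -0.44 (adjusted p = 0.0232) without both libraries rich in ribosomal RNA.

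Per kilobase of annotated exon, the 2 KMT5B copies exchanged places over the day in every genotype. In CPM, without scaling to length, the chromosome 24 copy stayed above the chromosome 7 copy in every library. The ratio in CPM was 1.19 to 1.41 on day 3 and 4.01 to 5.40 on day 2. The chromosome 24 copy held 31.6 and 33.5% of the summed KMT5B level per kilobase in day 3 KMT5A knockout embryos, 32.2 and 30.7% in day 3 KMT1 knockout embryos and 31.2 and 29.8% in day 3 wildtype embryos. On day 2 it held 65.9 and 63.7% in KMT5A knockout embryos, 64.1 and 64.3% in KMT1 knockout embryos and 59.2 and 58.9% in wildtype embryos. All 6 day 2 libraries were above an even share and all 6 day 3 libraries below it, and on day 2 all 4 knockout libraries were above the same 2 wildtype libraries. The shares rest on exon lengths of 13181 bases for the chromosome 24 copy and 4713 bases for the chromosome 7 copy. An untranslated end missing from a model would change the ratio of the copies by the same factor in all libraries. It would not shift the share by the same amount in each. Whether the share crosses an even share between the days, and the size of its drop, therefore depend on these annotated lengths. The direction of the drop from day 2 to day 3 does not.

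**Figure D3:**
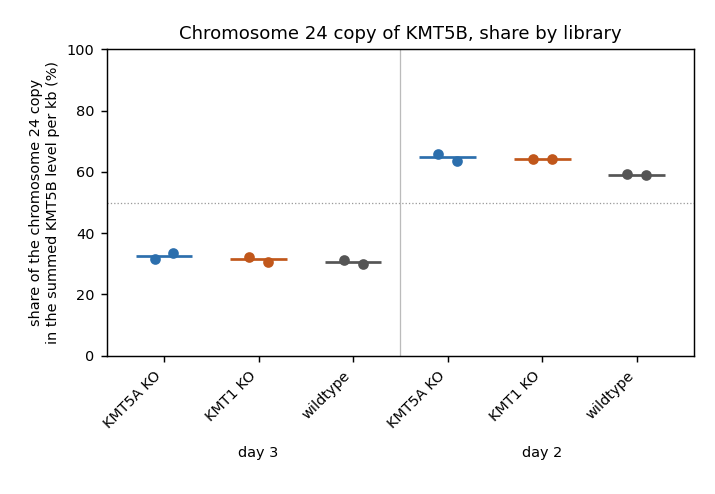
Share of the chromosome 24 copy in the summed level of both KMT5B copies per kilobase of exon (vertical axis, percent) in each of the 6 groups, where points are libraries and bars the mean of 2. The day 3 libraries lie between 29.8 and 33.5% and the day 2 libraries between 58.9 and 65.9%, on either side of the dotted line at an even share.

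The genes that neighbour KMT5A and SUV39H2 were described next. KMT5A is named in the label of a knockout, whereas SUV39H2 is a candidate that no label names as the gene cut. KMT5A lies 12 Mb from one annotated end of chromosome 21 and 2.2 Mb from the other. On day 3 the 211 tested genes on its lower-coordinate side had a median log2 fold change of -0.61 in the KMT5A knockout over wildtype, with 72 called lower and 3 called higher, where 1.97% of all tested genes were called lower. The 39 tested genes on the higher-coordinate side had a median of -0.15, with 1 called lower and 1 higher. The median of all tested genes was 0.00. Among genes above 0 in all 12 libraries the median was -0.67 for 137 genes on the lower-coordinate side and -0.16 for 28 genes on the higher-coordinate side.

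The shift on chromosome 21 was seen in both pools and in 1 genotype. In single libraries, the median of the 137 lower-coordinate genes relative to day 3 wildtype was -0.60 and -0.60 in the day 3 KMT5A knockout, and 0.02 and 0.02 in the day 3 KMT1 knockout. The replicate without much ribosomal RNA thus had the same value as the one rich in it, and without both libraries rich in ribosomal RNA the side had 77 genes called lower and 3 higher. Over steps of 2 Mb the median was -0.77, -0.76, -0.71, -0.73 and -0.75 between 12 and 2 Mb below KMT5A, and -0.28 in the last 2 Mb before it. It was -0.16 in the first 2 Mb above KMT5A. The genes closest to KMT5A were mostly weakly expressed, and the 10 nearest tested genes on the lower-coordinate side had a median of 0.00. Only 2 of these 10 had no library at 0, and their day 3 KMT5A knockout median over wildtype was 0.17. Among the nearest 20, 9 genes had no library at 0, and their median was 0.16. Of these 9, 6 had values over 0 and 3 under 0, and 2 were called lower. The medians of these nearest genes thus did not show the shift of the whole side. Of the nearest genes with a symbol, CHST14 is a dermatan sulfotransferase. It had 87 and 175 estimated counts in day 3 KMT5A knockout embryos, against 87 and 64 in day 3 wildtype embryos. On the higher-coordinate side, an MCM7 gene model (PM11988), annotated as a replicative helicase subunit, lies 445 kb away. This model had 8 to 18 estimated counts in day 2 libraries and was listed at 0 in all day 3 knockout and wildtype libraries. These counts belong to that model only and do not give the level of MCM7 transcript in the embryos.

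SUV39H2 lies 8.62 Mb from one annotated end of chromosome 14 and 6.97 Mb from the other. On day 3 the 93 tested genes on its higher-coordinate side had a median log2 fold change of -0.33 in the KMT1 knockout over wildtype, with 25 called lower and 3 called higher, where 1.59% of all tested genes were called lower. The 76 tested genes on the lower-coordinate side had a median of 0.00, with 6 called lower and 6 higher. Among genes above 0 in all 12 libraries the median was -0.45 for 59 genes on the higher-coordinate side and -0.11 for 50 genes on the lower-coordinate side. In single libraries the median of those 59 genes relative to day 3 wildtype was -0.42 and -0.35 in the day 3 KMT1 knockout and -0.04 and -0.04 in the day 3 KMT5A knockout. In steps of 2 Mb going up from SUV39H2 the median was -0.39, -0.57, -0.45 and -0.67, the last of these over 3 genes, and in the 2 Mb below SUV39H2 it was -0.20. Without both libraries rich in ribosomal RNA the higher-coordinate side had 26 genes called lower and 8 higher, with a median of -0.21 over the 93 genes and -0.44 over the 59, and without replicate 1 of day 3 wildtype the median over the 93 genes was also -0.21.

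The 2 genes that flank SUV39H2 fell on either side of the threshold. DCLRE1C, the nuclease Artemis of DNA end joining, lies 6.52 kb away on the higher-coordinate side, and had a day 3 log2 fold change of -0.57 ± 0.11 in the KMT1 knockout (adjusted p = 0.0247) and of 0.08 ± 0.11 in the KMT5A knockout. HSPA14, a heat shock protein 70 relative, lies 4.55 kb away on the lower-coordinate side, and had -0.34 ± 0.08 in the KMT1 knockout (adjusted p = 0.056) and 0.03 ± 0.08 in the KMT5A knockout on day 3. HSPA14 was also lower in the KMT1 knockout on day 2, at -0.39 ± 0.08 (adjusted p = 0.0237). The call of DCLRE1C was lost in 9 of 12 fits that left out 1 library and that of HSPA14 in 4 of 12, and both were lost with library size as the only scaling. Without both libraries rich in ribosomal RNA the day 3 KMT1 knockout values were -0.54 for DCLRE1C (adjusted p = 0.0435) and -0.42 for HSPA14, which then passed (adjusted p = 0.00402).

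**Figure D4:**
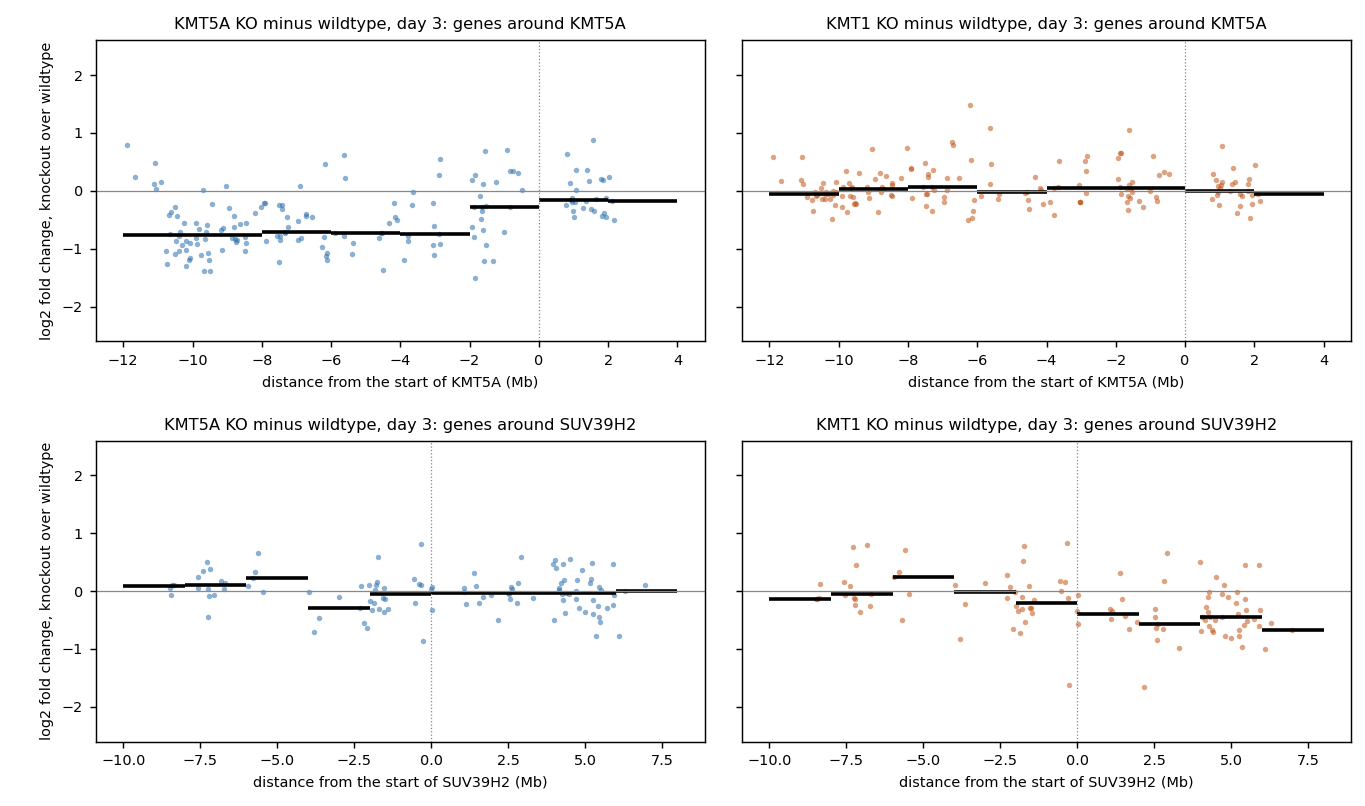
Day 3 log2 fold change of knockout over wildtype (vertical axes) for genes above 0 in all 12 libraries, against the distance in Mb of their start from that of KMT5A (upper panels) and of SUV39H2 (lower panels), with the KMT5A knockout on the left and the KMT1 knockout on the right. Black bars are medians of 2-Mb steps, which lie between -0.77 and -0.71 from 12 to 2 Mb below KMT5A in the KMT5A knockout and between -0.67 and -0.39 above SUV39H2 in the KMT1 knockout. Within the outermost step, the genes from 11.89 to 10.90 Mb below KMT5A lie above 0 in the KMT5A knockout.

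On day 2 the shifts of the same sides were smaller. The 137 lower-coordinate genes of KMT5A had a median log2 ratio to day 2 wildtype of -0.12 and -0.16 in the day 2 KMT5A knockout libraries and of -0.06 and -0.07 in the day 2 KMT1 knockout libraries. Over all genes the medians were -0.05 and -0.06 in day 2 KMT5A knockout and -0.05 and -0.06 in day 2 KMT1 knockout libraries. Of the 211 tested genes on that side, 30 (14.2%) were called lower and 3 higher in the KMT5A knockout on day 2, where 6.43% of all tested genes were called lower. The 59 higher-coordinate genes of SUV39H2 had -0.14 and -0.11 in the day 2 KMT1 knockout and -0.08 and -0.08 in the day 2 KMT5A knockout libraries.

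Among 76 chromosomes with at least 20 genes above 0 in all 12 libraries, chromosome 21 had the lowest median in the day 3 KMT5A knockout, at -0.51, and the next lowest was -0.15. Chromosome 14 had the lowest median in the day 3 KMT1 knockout, at -0.28, and the next lowest was -0.17. The shifts of whole chromosomes were already known from earlier results of these data, so this ranking describes them and is not separate support. On day 2 neither of these 2 chromosomes was lowest. Chromosome 21 ranked 9 from the lowest in the KMT5A knockout, at -0.11, where chromosome 71 had -0.26. Chromosome 14 ranked 15 from the lowest in the day 2 KMT1 knockout, at -0.08, where chromosome 71 had -0.25. Around SETDB1 on chromosome 1 the side medians in the day 3 KMT1 knockout were -0.02 over 272 genes and -0.04 over 109 genes. Around EHMT2 on chromosome 22 they were -0.00 over 16 genes and 0.00 over 128 genes. Of the KMT1 family models found here, SUV39H2 passed lower in the KMT1 knockout and had a shifted flank. Its own value of -0.63 lay within the range of the 2-Mb step medians above it, -0.39 to -0.67. The steps next to it had -0.39 above and -0.20 below. Whether its fall is separate from the shift of its flank was not tested, so the 2 should not be counted as independent. SUV39H1, EHMT1 and SETDB2 were not found by symbol. Which gene the guides cut was not tested. Why the flanks shifted was not tested.

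**Figure D5:**
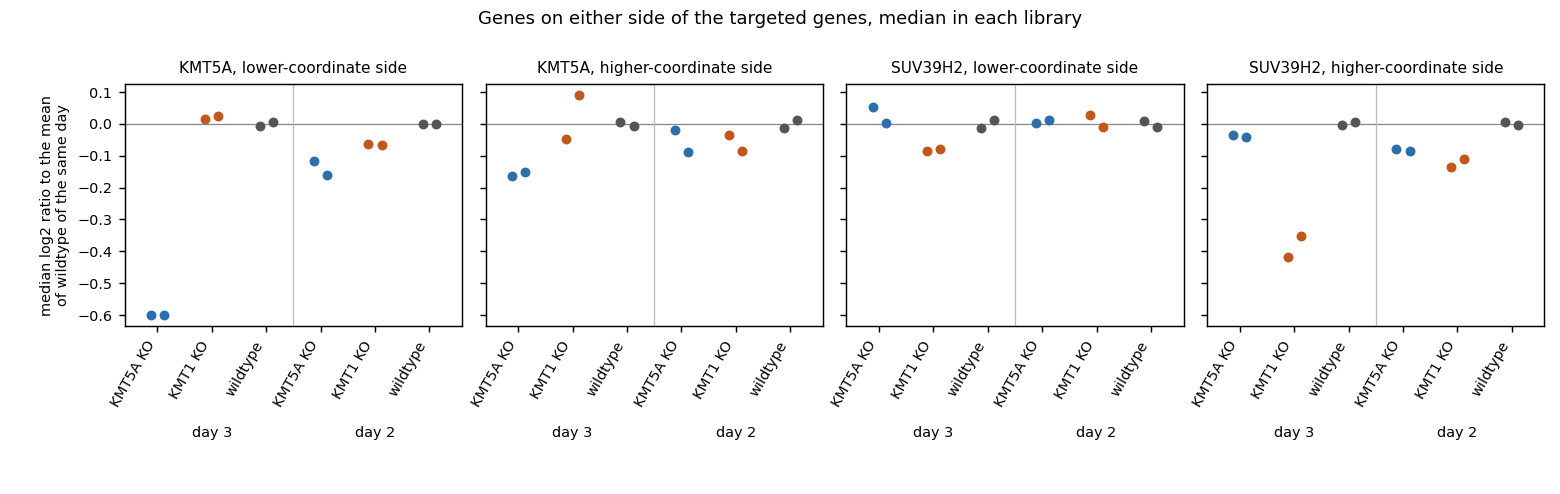
Median log2 ratio to the mean of wildtype of the same day (vertical axis) of genes above 0 in all 12 libraries on each side of KMT5A and of SUV39H2, 1 point per library. The title calls both genes targeted, but no label names SUV39H2. The day 3 KMT5A knockout libraries lie at -0.60 for the lower-coordinate side of KMT5A and the day 3 KMT1 knockout libraries at -0.42 and -0.35 for the higher-coordinate side of SUV39H2, and the wildtype points of a pair mirror each other because both are set against their own mean.

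Other genes of the H3K9 and H4K20 methylation pathways were read from 5 lists, of which 32 of 51 symbols were found in 43 gene models, all of them tested. In wildtype embryos 21 of the 43 rose on day 3 over day 2, 13 fell and 9 did not pass, with a median log2 change of 0.35 against -0.32 for all genes. Of all tested genes 29% rose and 37.0% fell in this comparison, which is the background for the counts of each list below. With library size as the only scaling 11 rose and 15 fell. Of the H3K9 methyltransferases and cofactors, 5 of 7 models rose and 1 fell. MECOM, a PR-domain transcription factor, rose by 1.80 ± 0.15 (adjusted p = 1.09e-05), with 58.5 and 48.7 CPM in day 3 against 14.4 and 16.4 CPM in day 2 embryos, while a second MECOM model, on chromosome 39, had a fitted value of -11.18 that did not pass (adjusted p = 0.0563). EHMT2 fell by 1.53 log2 units, with 124.9 and 127.1 CPM in day 3 against 363.4 and 362.2 CPM in day 2 wildtype embryos (adjusted p = 5.19e-07).

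The readers of the H3K9 mark split, with 6 of 14 models rising, 5 falling and 3 not passing. A CBX5 model on chromosome 2, one of several for this HP1 protein, had 5.30 and 5.03 CPM in day 3 against 28.8 and 27.0 CPM in day 2 wildtype embryos (log2 fold change -2.43, adjusted p = 3.9e-06). The CBX5 models on chromosomes 4 and 34 rose by 0.35 and 0.77, and the one on chromosome 54 had 0.95, which did not pass (adjusted p = 0.052). TASOR, a subunit of the HUSH silencing complex, had 166.7 and 151.2 against 92.2 and 82.3 CPM (0.87, adjusted p = 0.00204), a call that ended with library size as the only scaling. Of 6 models of H3K9 demethylases 4 rose and 1 fell, and PHF8 had 193.6 and 205.5 CPM in day 3 against 71.2 and 64.6 CPM in day 2 wildtype embryos (1.55, adjusted p = 5.22e-07). Of 7 models of H4K20 partners 3 rose and 3 fell, among them RSBN1, an H4K20 demethylase in mouse, with 131.1 and 132.0 CPM in day 3 against 463.7 and 460.4 CPM in day 2 wildtype embryos (-1.81, adjusted p = 1.86e-08). Of 9 models tied to the turnover of the KMT5A protein 3 rose and 3 fell. DTL, which delivers KMT5A to its ubiquitin ligase, had 33.6 and 35.3 CPM in day 3 against 304.9 and 309.4 CPM in day 2 wildtype embryos (-3.16, adjusted p = 9.64e-09), and FZR1, an activator of the anaphase-promoting complex, had 98.8 and 100.2 against 41.6 and 40.4 CPM (1.28, adjusted p = 4.09e-07).

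Calls in these lists were more numerous on day 2 than on day 3 in the knockouts, and more models fell than rose on day 2, as did all tested genes. On day 2 in the KMT5A knockout 8 of 43 models fell and none rose (3 higher at an unadjusted p under 0.05, 4 called by DESeq2), with a median of -0.08 against -0.03 for all genes, and in the KMT1 knockout 9 fell and 1 rose, with a median of -0.10 against -0.02. Of all tested genes 6.43% fell and 2.64% rose in the KMT5A knockout, and 6.79% fell and 3.18% rose in the KMT1 knockout. The direction is thus shared with the background. DESeq2 called 2401 of 15009 genes in the KMT5A knockout, in either direction. KDM4C, an H3K9 demethylase, had 216.1 and 217.6 CPM in KMT5A knockout and 224.0 and 202.6 CPM in KMT1 knockout embryos, against 328.4 and 342.4 CPM in wildtype embryos (log2 fold changes -0.63, adjusted p = 0.000443, and -0.65, adjusted p = 0.000342). PCNA had 168.4 and 174.8 CPM in KMT5A knockout and 167.2 and 164.9 CPM in KMT1 knockout embryos, against 224.7 and 215.3 CPM in wildtype embryos (-0.36, adjusted p = 0.00604, and -0.41, adjusted p = 0.00317). A PRDM2 model on chromosome 20 fell by 0.47 (adjusted p = 0.00582) in the KMT5A and by 0.51 (adjusted p = 0.00359) in the KMT1 knockout, and the second PRDM2 model, on chromosome 37, had 0.03 in the KMT5A and 0.17 in the KMT1 knockout, which did not pass. CDYL, a chromodomain protein, fell by 0.37 (adjusted p = 0.0184) in the KMT5A and by 0.44 (adjusted p = 0.0083) in the KMT1 knockout. Both comparisons use the same 2 wildtype libraries, so their values are not independent. Leaving out 1 library gave 4 to 9 models falling in the KMT5A and 4 to 10 in the KMT1 knockout, and CDYL lost its call in 4 and 2 of those 12 fits. With library size as the only scaling KDM4C alone fell in each knockout, and none rose. Leaving out both libraries rich in ribosomal RNA, 9 fell and 4 rose in the KMT5A knockout, and 10 fell and 4 rose in the KMT1 knockout.

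On day 3 the lists showed few calls. In the KMT5A knockout 2 of 43 models rose and 1 fell, and in the KMT1 knockout 2 rose and none fell (2 lower at an unadjusted p under 0.05, 1 called by DESeq2). Of all tested genes 3.33% rose and 1.97% fell in the KMT5A knockout and 4.67% rose and 1.59% fell in the KMT1 knockout. The counts are thus near the background. DESeq2 called 2686 of 15009 genes in the KMT1 knockout, in either direction. A CBX5 model on chromosome 4 rose in both, with 886.4 and 812.7 CPM in KMT5A knockout and 822.0 and 841.2 CPM in KMT1 knockout embryos, against 701.6 and 725.6 CPM in wildtype embryos (0.25, adjusted p = 0.0164, and 0.22, adjusted p = 0.0245). The CBX5 models on chromosomes 2, 34 and 54 had values between -0.42 and 0.08 in the KMT5A knockout and between -0.45 and 0.12 in the KMT1 knockout, and none of these 3 passed. PPHLN1, a subunit of the HUSH complex, had 37.3 and 30.4 CPM in day 3 KMT5A knockout against 57.9 and 53.8 CPM in wildtype embryos (-0.72, adjusted p = 0.00534). RBX1, the RING subunit shared by the cullin ligases, rose by 0.32 in the KMT5A knockout with an adjusted p of 0.0494, and PCNA rose by 0.27 in the KMT1 knockout with an adjusted p of 0.0256. Of the 9 turnover genes of KMT5A, RBX1 was the 1 called in the KMT5A knockout on day 3. RBX1 lost its call in 9 of 12 fits that left out 1 library, PCNA in 4, and the CBX5 model on chromosome 4 in 2 for the KMT5A and 8 for the KMT1 knockout. With library size as the only scaling, PPHLN1 in the KMT5A knockout was the 1 call left on day 3. In the fit without both libraries rich in ribosomal RNA, 3 rose and 1 fell in the KMT5A knockout, and 5 rose and 2 fell in the KMT1 knockout.

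The genes most like each member over the 12 libraries were named by the highest Pearson correlation of log2 CPM among 9206 genes, as a description in which all points share their libraries and the 2 days dominate. For KMT5A these were PRC1, a spindle midzone protein (r = 0.980), TRIM33 (0.970) and PARL (0.970), and all 3 lie on chromosome 21 between 10.4 and 7.46 Mb below KMT5A, on the shifted side. PRC1 averaged 67.1 CPM in day 3 KMT5A knockout and 125.4 CPM in day 3 KMT1 knockout embryos, against 138.9 CPM in day 3 wildtype embryos. For SUV39H2 they were PPM1B on chromosome 6 (0.996) and NOPCHAP1 (0.992) and POC1A, a centriole protein (0.991), and the last pair lie 4.48 and 5.00 Mb above SUV39H2 on chromosome 14. For the chromosome 24 copy of KMT5B they were NUMB (0.999), BIN1 (0.998) and LSM14A (0.998). For the chromosome 7 copy they were TTC14 (0.973), NAP1L4 (0.965) and CNOT11 (0.965), of which TTC14 and NAP1L4 lie on the lower-coordinate side of KMT5A on chromosome 21. For SETDB1 the values were lower, with SH3KBP1 at 0.954, NAGPA at 0.922 and LANCL2 at 0.910. Among the members themselves the highest correlation was that of SUV39H2 with the chromosome 24 copy of KMT5B (0.961), and the 2 KMT5B copies had a correlation of -0.839.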

How the data were processed

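RNA from 12 pools of sea lamprey embryos was sequenced, and the analysis started from the table of whole-number estimated counts per gene model that the authors deposited. Per the submitters' processing notes HISAT2 2.2.1, StringTie 2.2.3 and DESeq2 1.42.1 were used, with no role given for each, and the genome build is not given in the sources used here. The expected counts are estimates, so an exact 0 may be a failed estimate, and no per-library variance of the estimate is known. Groups and replicate numbers were taken from the sample titles.

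From the counts, genes were filtered with filterByExpr (15615 of 22407 kept, all 5 members among them), scaled by TMM and fitted with edgeR 4.0.16 in 1 model with a coefficient for each of the 6 groups (6 residual degrees of freedom), using the quasi-likelihood test with Benjamini-Hochberg adjustment in each of 11 comparisons and a threshold of 0.05. Levels are CPM on TMM-scaled sizes, except those of the early embryonic and muscle markers, which are CPM on library totals. Levels of different genes are set side by side per kilobase of the union of annotated exons, apart from the CPM ratio of the KMT5B copies. The fit was tested on simulated data. Alternatives were other scalings, no low-count filter, DESeq2 1.42.0, the compared groups alone, a replicate block, each library left out, and, chosen after seeing the data, both libraries rich in ribosomal RNA left out. The 2-Mb steps, the medians in single libraries and the flanks of SETDB1 and EHMT2 were also added after seeing the data. Named genes are all member models, up to 2 called genes per list and direction with the largest change, the 3 genes most like each member and the nearest named neighbours, and EHMT2 on day 3 was added as a KMT1 family member. The members and lists were chosen with earlier results of these data known, and the shifts of whole chromosomes were known from them too. P-values of the main fit rest on the spread between the 2 pools within a group, pooled over all 6 groups and moderated across genes. They do not rest on the compared groups alone. Sequences of the members were not used here.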

Additional observations from a re-analysis of the deposited data

Results flagged for a closer look

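Differences from wildtype that changed between the days were picked out among the members by the test of the change itself (edgeR's quasi-likelihood test over 15615 genes). SUV39H2 in the KMT1 knockout was lower than wildtype on day 3 and above it on day 2, a difference of -0.94 log2 units (adjusted p = 0.00436). SUV39H2 in the KMT5A knockout had a difference of -0.65 between the days (adjusted p = 0.0164). KMT5A in the KMT5A knockout differed by -1.33 (adjusted p = 0.000516), with 2 of 2 day 3 knockout libraries below both wildtype libraries and overlapping libraries on day 2. The chromosome 24 copy of KMT5B in the KMT5A knockout differed by -0.38 (adjusted p = 0.0362). With 2 libraries per group, no group could be examined for a single library far from the others.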

How the results depend on the processing

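The 55 log2 values of the members (5 gene models in 11 comparisons, 22 called) were recomputed under 19 alternatives, of which 12 leave out 1 library each. Dropping the low-count filter changed no call or sign. With DESeq2 size factors KMT5A in the KMT5A knockout on day 2 became 0.0045 and in the KMT1 knockout on day 3 0.00031, with DESeq2's test 0.0045 and 0.00028, all around 0. DESeq2's test gave 0.34 for SUV39H2 in the KMT1 knockout on day 2, now called. With library size as the only scaling, which moved the median of all genes by -0.31 to -0.53 between days, SETDB1 (0.11) and the chromosome 7 copy of KMT5B (0.15) in wildtype embryos over time were no longer called, nor were 3 knockout values given above. The chromosome 7 copy reversed over time in the KMT5A knockout (-0.26), SETDB1 over time in the KMT1 knockout (-0.31) and in the difference between days for the KMT5A knockout (-0.055). The same scaling gave 0.044 for KMT5A in the KMT5A knockout on day 2, -0.035 for the chromosome 24 copy in the KMT1 knockout on day 3 and -0.021 for the chromosome 7 copy in the difference between days for the KMT1 knockout. The cause was not tested.

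In fits of the compared groups alone, which have fewer samples, SUV39H2 in the KMT1 knockout on day 3 (-0.63), KMT5A in the KMT5A knockout on day 3 (-1.36) and over the KMT1 knockout (-1.33) and the chromosome 7 copy over time in the KMT5A knockout (0.28) were no longer called, SUV39H2 in the KMT1 knockout on day 2 was (0.35), and KMT5A in the KMT5A knockout on day 2 became 0.018. Without both libraries rich in ribosomal RNA SUV39H2 in the KMT1 knockout on day 2 was called (0.35), the chromosome 7 copy over time in the KMT5A knockout was not (0.19), and values near 0 changed sign: KMT5A in the KMT5A knockout on day 2 (0.016) and in the KMT1 knockout on day 3 (0.014), the chromosome 24 copy in the KMT1 knockout on day 3 (-0.015) and the chromosome 7 copy in the difference between days for the KMT1 knockout (-0.025).

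With 1 library left out, SUV39H2 in the KMT1 knockout on day 2 ranged from 0.28 to 0.35, and SETDB1 over time in wildtype embryos from 0.28 to 0.60. Ranges across 0, none of them called, were found for SETDB1 in the KMT1 knockout on day 2 (-0.060 to 0.14), in the KMT5A knockout on day 3 (-0.26 to 0.051) and in its difference between days for the KMT5A knockout (-0.034 to 0.28). For KMT5A they were -0.053 to 0.060 in the KMT1 knockout on day 2, -0.052 to 0.016 in the KMT5A knockout on day 2, -0.011 to 0.026 in the KMT1 knockout on day 3, -0.082 to 0.030 between the knockouts on day 2 and -0.070 to 0.042 in the difference between days for the KMT1 knockout. For the chromosome 24 copy they were -0.018 to 0.13 in the KMT1 knockout on day 3, and for the chromosome 7 copy -0.13 to 0.11 in the KMT1 knockout on day 3, -0.013 to 0.066 between the knockouts on day 2 and -0.025 to 0.22 in the difference between days for the KMT1 knockout.

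The median on the lower-coordinate side of KMT5A, -0.61, was -0.67 over genes above 0 in all 12 libraries, -0.59 with DESeq2 size factors and with DESeq2's test, -0.73 with the compared groups alone, -0.78 with library size only, -0.63 with the replicate block, -0.64 without both libraries rich in ribosomal RNA and -0.64 to -0.50 with 1 library left out. The higher-coordinate side, -0.15, was -0.31 with library size only and -0.16 to -0.10 with 1 library left out. The higher-coordinate side of SUV39H2, -0.33, was -0.45 over genes above 0 and with the compared groups alone, -0.40 with library size only, -0.21 without both libraries rich in ribosomal RNA and -0.35 to -0.21 with 1 library left out. Its lower-coordinate side, 0.00, was -0.11 over genes above 0 and -0.082 with the compared groups alone.

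Replicates of different groups share only a number: over 15 pairs of groups, deviations of same-numbered libraries correlated at -0.271 to 0.107. With the replicate block 1 of the 22 calls was lost, the difference between days of the chromosome 24 copy for the KMT5A knockout (-0.38, adjusted p = 0.0592).

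Counts of called genes depended on the method. In the order KMT5A knockout day 3, KMT1 knockout day 3, KMT5A knockout day 2 and KMT1 knockout day 2, each over wildtype, 828, 977, 1417 and 1557 genes were called, against 2479, 2686, 2401 and 2543 with DESeq2's test and 291, 252, 328 and 354 with library size only. The compared groups alone gave 14, 1, 1991 and 2522, and leaving out both libraries rich in ribosomal RNA 1359, 2358, 2003 and 2218. Between the knockouts 229 genes on day 3 and 23 on day 2 became 1124 and 100 with DESeq2, 159 and 14 with library size only, 187 and 14 with the replicate block, 1 and 7 with the compared groups alone and 1052 and 19 without both libraries. The difference between days, 1507 genes for the KMT5A and 1595 for the KMT1 knockout, became 3197 and 3219 with DESeq2, 264 and 217 with library size only and 2078 and 3037 without both libraries. With 1 library left out these counts ranged from 495 to 1824, 577 to 1551, 679 to 1550, 693 to 1678, 186 to 811, 19 to 68, 772 to 2280 and 782 to 1987, in the same order. Counts between days within a genotype stayed within 1.5 times of their value. Of 40 called values of the other named genes none changed sign under these alternatives, 24 kept their call whichever library was left out, and 22 lost it with library size only, 6 with DESeq2 size factors, 8 with the compared groups alone, 3 with the replicate block and 1 (CBX1 over time in wildtype) without both libraries. The members each had at least 2022 estimated counts in every library.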
